A study of Mus musculus with 35 samples.

Results

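The genes described here are 34 listed genes of the unfolded protein response (UPR) and of the response to a shortage of amino acids, measured by bulk RNA-seq in sorted mouse liver macs. Of the 34, 31 were over 1 CPM (counts scaled to a library total of 1e+06) in at least 5 of the 35 samples and were tested, out of 13421 genes that passed the same filter among 54735 symbols. Members were taken by gene name, with no threshold on a difference between groups. The 3 that did not pass were *Chac1*, which degrades glutathione and was over 1 CPM in 1 sample, *Vldlr*, a lipoprotein receptor that was over 1 CPM in 0 samples, and *Phgdh*, the first enzyme of serine synthesis, which was over 1 CPM in 4 samples.

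All samples came from C57Bl/6J males. Mice were fed a western diet (WD) or a standard diet (SD) for 12 or 24 weeks, and macs were sorted on the Kupffer cell protein CLEC4F and on TIM4, a receptor that marks long-resident Kupffer cells. Resident Kupffer cells (ResKCs, CLEC4F+TIM4+) gave 7 SD and 5 WD samples at 12 weeks and 6 SD and 6 WD samples at 24 weeks, while WD-fed mice at 24 weeks also gave 5 samples of monocyte-derived Kupffer cells (moKCs, CLEC4F+TIM4-) and 6 of CLEC4F- macs. For the 5 WD samples at 12 weeks the diet field of the labels reads standard diet, but title and description give the WD, which was followed. The study counts n as animals, and the labels do not say which mouse or mice gave each sample. The p-values measure the spread between these samples. The file headers of WD ResKC library 1 at 12 weeks and of moKC library 2 carry alignment names with the same number but another letter, and the sources used here do not say what that number stands for. Each sample held between 11568590 and 15163845 counts, at which 3 counts of a gene are 0.198 to 0.259 CPM, a floor that covers counting error only. The sorts could be read in the marker genes: *Clec4f* averaged 9844 to 15100 CPM in the ResKC and moKC groups but 1718 ± 1893 CPM in CLEC4F- macs (SD, n = 6). *Timd4* averaged 732 to 1094 CPM in the ResKC groups, against 12.5 ± 11.5 CPM for moKCs (SD, n = 5) and 8.24 ± 4.01 CPM for CLEC4F- macs (SD, n = 6). The CLEC4F- library 4 stood nearest to the Kupffer cells. In bulk samples, fewer cells of a type and less RNA per cell cannot be told apart.

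The endoplasmic reticulum (ER) folds secreted and membrane proteins, and when unfolded proteins build up there, 3 membrane sensors start the UPR. IRE1 splices the *Xbp1* mRNA, ATF6 moves to the Golgi and is cut into a transcription factor, and PERK phosphorylates eIF2, which slows translation while the mRNA of *Atf4* is translated more. XBP1 and ATF6 raise genes for folding and for ER-associated degradation (ERAD), the path that sends misfolded proteins to the proteasome. ATF4 raises genes for amino acid synthesis and uptake and for the stress factor CHOP, and it is also reached through the kinase GCN2 when amino acids run short. Macs that take up much lipid are known to engage parts of this response. Counts per gene, as used here, do not measure splicing, cleavage or phosphorylation.

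Genes of this response are known to share short sequence elements near their starts, and these are shown because they describe the members independently of their counts. Promoter windows (RefSeq, GRCm38.p6, 250 bases before to 50 bases after each start) were found for 30 of the 34 members, and not for *Hyou1*, *Atf6*, *Derl1* and *Manf*. The ER stress response element (ERSE: CCAAT, 9 bases of any kind, then CCACG, on either strand) was in the windows of 9 members, against 0.119% of all 32851 windows. Below are the 250 bases before the start of *Hspa5* and of the 4 members that were higher on the WD at 24 weeks, written on the gene's own strand, with every match to a searched element in capitals. The capitals in *Hspa5* are first a UPRE core and then an ERSE, and those in *Creld2* are an ERSE read on the opposite strand. The *Psat1* stretch holds no capitals. RefSeq gives *Psat1* a second start on chromosome 19, and its window held no match either.
Hspa5, chr2:34771840-34772089, plus strand: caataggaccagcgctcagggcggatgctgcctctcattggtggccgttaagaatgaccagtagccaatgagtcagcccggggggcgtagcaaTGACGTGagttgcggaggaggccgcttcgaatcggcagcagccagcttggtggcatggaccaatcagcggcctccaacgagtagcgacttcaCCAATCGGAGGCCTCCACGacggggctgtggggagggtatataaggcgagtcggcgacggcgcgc
Creld2, chr15:88819396-88819645, plus strand: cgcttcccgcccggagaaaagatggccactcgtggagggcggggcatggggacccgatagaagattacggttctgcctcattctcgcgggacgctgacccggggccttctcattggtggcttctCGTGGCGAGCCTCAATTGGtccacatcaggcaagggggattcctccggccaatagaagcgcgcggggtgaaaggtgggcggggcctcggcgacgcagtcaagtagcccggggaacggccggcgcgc
Syvn1, chr19:6046326-6046575, plus strand: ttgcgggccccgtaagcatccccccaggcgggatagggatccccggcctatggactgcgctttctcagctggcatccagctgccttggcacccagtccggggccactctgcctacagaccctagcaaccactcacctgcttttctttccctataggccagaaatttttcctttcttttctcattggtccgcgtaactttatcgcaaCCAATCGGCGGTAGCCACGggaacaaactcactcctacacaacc
Pdia6, chr12:17266339-17266588, plus strand: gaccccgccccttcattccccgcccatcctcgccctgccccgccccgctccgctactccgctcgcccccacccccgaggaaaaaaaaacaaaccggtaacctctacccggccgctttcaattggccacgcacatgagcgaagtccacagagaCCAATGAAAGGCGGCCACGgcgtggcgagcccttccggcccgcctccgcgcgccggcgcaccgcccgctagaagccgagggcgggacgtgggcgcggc
Psat1, chr19:15925060-15925309, minus strand: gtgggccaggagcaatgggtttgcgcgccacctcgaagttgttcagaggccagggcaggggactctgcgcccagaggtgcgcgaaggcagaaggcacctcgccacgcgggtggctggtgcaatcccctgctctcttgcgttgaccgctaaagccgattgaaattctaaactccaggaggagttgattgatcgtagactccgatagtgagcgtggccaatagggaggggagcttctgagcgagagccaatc

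The ERSE matches themselves are lined up next, read 5′ to 3′ on the strand that carries them, with the fixed letters in capitals and the 9 free bases in lower case, to show that the free bases differ.
Hspa5, 65 bases before the start, gene strand: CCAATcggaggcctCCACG
Calr, 162 bases before the start, opposite strand: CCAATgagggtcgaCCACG
Derl3, 156 bases before the start, opposite strand: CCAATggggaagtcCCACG
Hsp90b1, 212 bases before the start, gene strand: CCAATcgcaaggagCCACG
Hsp90b1, 107 bases before the start, opposite strand: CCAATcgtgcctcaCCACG
Canx, 145 bases before the start, gene strand: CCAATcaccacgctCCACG
Pdia6, 98 bases before the start, gene strand: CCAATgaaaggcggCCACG
Dnajc3, 105 bases before the start, gene strand: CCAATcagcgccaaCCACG
Creld2, 126 bases before the start, opposite strand: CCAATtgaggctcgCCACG
Syvn1, 44 bases before the start, gene strand: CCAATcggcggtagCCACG

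Of the ERSE carriers, *Hspa5*, *Hsp90b1*, *Calr*, *Canx*, *Dnajc3*, *Creld2* and *Pdia6* code for chaperones and folding enzymes, and *Syvn1* and *Derl3* for ERAD proteins. The shorter ERSE-II (ATTGG, 1 base of any kind, then CCACG, on either strand) was in *Herpud1* and *Dnajb11*, against 0.0365% of all windows. The UPRE core (TGACGTG, either strand), a site of XBP1 and ATF6, was in *Hspa5* alone of the members, against 2.01% of all windows. The C/EBP-ATF response element (CARE, TGATGNAA, either strand), a site of ATF4, was in *Chac1*, *Trib3*, *Asns*, *Herpud1* and *Vldlr*, against 3.97% of all windows. The ERSE and ERSE-II letters did not share a window in any member, and *Herpud1* held both an ERSE-II and a CARE. A match describes the letters in these windows and is not a measured site.

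The members covered a wide range of levels. Per kilobase of exon, the scale on which genes can be compared, the ER chaperone *Hspa5* (BiP, the main Hsp70 of the ER) led in WD ResKCs at 24 weeks with 480 CPM per kilobase, followed by the lectin chaperone *Calr* at 405 and the disulfide isomerase *Pdia3* at 403 CPM per kilobase. At the other end stood the asparagine synthetase *Asns* with 0.172, the ERAD gene *Derl3* with 0.365, the pseudokinase *Trib3* with 0.885, *Psat1* with 1.19 and the mTORC1 inhibitor *Ddit4* with 3.68 CPM per kilobase. Between the 6 groups most members moved little: the highest group mean was under 1.5 times the lowest for 18 of the 31 members, between 1.5 and 2 times for 6 and over 2 times for 7. Those 7 were *Asns*, *Psat1*, *Derl3*, *Ddit4*, *Herpud1*, *Sesn2* and *Trib3*. CLEC4F- macs had the highest mean for 12 of the 31 members, and SD ResKCs at 12 weeks the lowest for 16.

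Several members were followed in every group as the readouts of the pathway. *Hspa5*, on chromosome 2 of mm10 from 34771970 to 34777547, averaged 1488 ± 172.5 CPM in SD ResKCs (SD, n = 7) and 1616 ± 136.7 CPM in WD ResKCs (SD, n = 5) at 12 weeks. At 24 weeks the averages were 1737 ± 402.5 CPM in SD ResKCs and 2029 ± 257.3 CPM in WD ResKCs (SD, n = 6 each). The moKCs had 2168 ± 335.3 CPM (SD, n = 5), and the CLEC4F- macs had 2244 ± 487.9 CPM (SD, n = 6). Neighbours in this order overlapped, and *Hspa5* passed the test in none of the 8 comparisons made with edgeR's quasi-likelihood test (adjusted p under 0.05).

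*Xbp1*, the factor of the IRE1 branch, was lowest at 12 weeks, with 233.9 ± 19.54 CPM on the WD (SD, n = 5) and 264.3 ± 21.25 CPM on the SD (SD, n = 7). The 4 groups at 24 weeks lay between 325.2 ± 31.76 CPM in WD ResKCs (SD, n = 6) and 343.5 ± 34.36 CPM in moKCs (SD, n = 5), closer together than the spread within any of them. *Atf4*, on chromosome 15 from 80255184 to 80257541, was highest in CLEC4F- macs with 82.31 ± 6.318 CPM (SD, n = 6) and lowest in WD ResKCs at 24 weeks with 60.78 ± 6.483 CPM (SD, n = 6). moKCs had 76.32 ± 13.83 CPM of *Atf4* (SD, n = 5), and the other 3 ResKC groups averaged 64.4 to 74.5 CPM.

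*Ddit3*, the gene of CHOP, stayed between group means of 16.8 ± 4.137 CPM in SD ResKCs at 12 weeks (SD, n = 7) and 21.04 ± 2.825 CPM in moKCs (SD, n = 5), with all 6 groups overlapping. *Asns* was hardly detected in ResKCs, at 0 counts in 4 of the 7 SD samples at 12 weeks, where up to 3 counts remain possible, and at no more than 17 counts in any WD ResKC sample at 24 weeks. The median of *Asns* was 0 CPM in SD ResKCs at 12 weeks and 0.272 CPM in WD ResKCs at 24 weeks, and 1.78 CPM in CLEC4F- macs, whose 6 libraries ranged from 0.323 to 2.98 CPM. *Asns* was over 1 CPM in 7 samples, 5 of CLEC4F- macs and 2 of WD ResKCs at 24 weeks, so it passed the filter mainly through CLEC4F- macs, where it was highest. CLEC4F- macs and WD ResKCs at 24 weeks overlapped for *Asns*, and edgeR's test did not call the difference (log2 fold change 1.82 ± 0.83 SE, adjusted p = 0.0934).

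**Figure D1:**
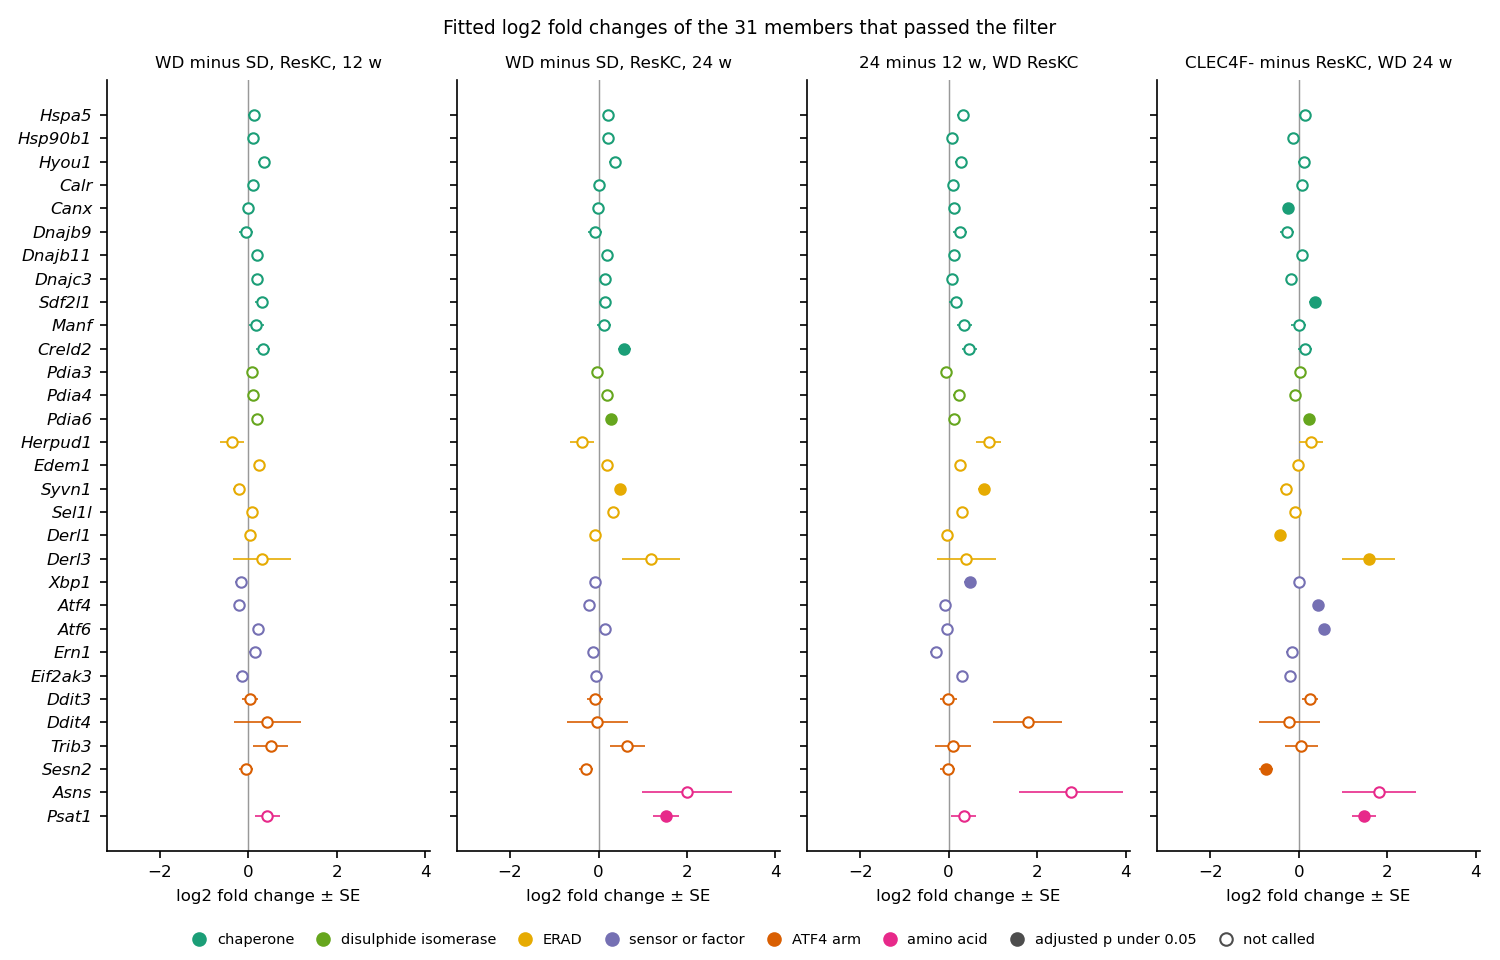
Fitted log2 fold change ± SE of the tested members, ordered by role, in 4 of the comparisons, with filled points for an adjusted p under 0.05 and open points otherwise. *Asns* is left out at 12 weeks, where its median was 0 CPM in both groups, and the widest bars belong to members with few counts, *Asns*, *Derl3*, *Ddit4* and *Trib3*.

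The first question was what the WD did to ResKCs after 24 weeks. Of the 31 members, 4 were higher and 0 lower in WD than in SD ResKCs (12.9%), where 8.71% of all 13421 genes were called in either direction and 4.84% were called higher. The 4 were *Psat1*, *Creld2*, *Syvn1* and *Pdia6*, a serine synthesis enzyme and 3 genes of folding and ERAD. The median log2 fold change of the members was 0.14 against 0.00375 over all genes. Above 0 were 19 of the 31 members and 6799 of all genes. Without SD library 6, which was high for many members, 6 were called higher and 0 lower. A fit without a high SD library gives larger differences by itself. The count of 6 has no share of all genes from the same fit beside it, so it cannot be set against the 8.71%.

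*Psat1*, phosphoserine aminotransferase of the serine synthesis pathway, lies on chromosome 19 of mm10 from 15904678 to 15947337. In SD ResKCs at 24 weeks it had a lowest value of 1.40, a median of 1.76 and a highest value of 2.17 CPM, from 20 to 30 counts a sample. In WD ResKCs it had 2.45, 3.87 and 10.4 CPM, from 32 to 138 counts. Every WD library was above every SD library, which 2.19% of all genes showed in this direction. The log2 fold change was 1.53 ± 0.28 SE (edgeR's quasi-likelihood test, adjusted p = 0.000861). WD library 4 held the highest level, and without it the call remained, as it did without any other 1 of the 12 libraries (log2 fold change 1.18 to 1.67, adjusted p 0.000317 to 0.00542).

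*Creld2*, a resident ER protein made under ER stress, had 43.9, 53.5 and 92.0 CPM as its lowest, median and highest value in SD ResKCs and 75.1, 84.5 and 106 CPM in WD ResKCs. The groups overlapped through SD library 6, which held the highest SD value. The log2 fold change was 0.59 ± 0.15 SE (edgeR, adjusted p = 0.0162). *Syvn1*, the ERAD ubiquitin ligase HRD1, had 55.2, 77.3 and 122 CPM in SD and 86.5, 115 and 130 CPM in WD ResKCs, and its log2 fold change was 0.50 ± 0.13 SE (edgeR, adjusted p = 0.0162). Here too SD library 6 lay among the WD libraries and the other 5 SD libraries lay below all of them. When only these 2 groups were fitted, the *Syvn1* call was lost (0.50, edgeR, adjusted p = 0.0674). The exons of *Syvn1* share 91 bases with *Mrpl49* on the opposite strand, and the strand setting of the counting is not given in the sources used here.

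*Pdia6*, a disulfide isomerase that works with BiP, had 392, 438 and 511 CPM in SD and 479, 535 and 624.5 CPM in WD ResKCs, with 0.29 ± 0.09 SE on the log2 scale (edgeR, adjusted p = 0.0417). This was the least stable of the 4, since it was called in 4 of the 12 fits that left out 1 library (adjusted p 0.0269 to 0.102). Next in order came *Hyou1*, the nucleotide exchange factor of BiP, with a log2 fold change of 0.37 ± 0.13 SE (edgeR, adjusted p = 0.0706), and *Sel1l*, the partner of HRD1, with 0.32 ± 0.12 SE (edgeR, adjusted p = 0.0779). Both were called when SD library 6 was left out, *Hyou1* at 0.51 (edgeR, adjusted p = 0.00853) and *Sel1l* at 0.43 (edgeR, adjusted p = 0.0148). Leaving out a high SD library raises these differences by itself, so these calls add no support.

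The chaperone that reads out the response most directly did not pass. *Hspa5* had a log2 fold change of 0.22 ± 0.13 SE (edgeR, adjusted p = 0.299), with SD libraries from 1401 to 2486 CPM and WD libraries from 1726 to 2357 CPM. The sensors and factors were not called either: *Xbp1* was at -0.07 ± 0.12 SE (edgeR, adjusted p = 0.771) and *Atf4* at -0.21 ± 0.12 SE (edgeR, adjusted p = 0.257). *Ddit3* was at -0.07 ± 0.18 SE (edgeR, adjusted p = 0.855).

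Several measures moved with this comparison. Immediate-early and heat-shock genes, a list of 10, summed to 2580 to 13900 CPM in SD and 1050 to 4940 CPM in WD ResKCs, and 7 of the 10 were called lower on the WD. Hepatocyte genes, also a list of 10, summed to 504 to 1490 CPM in SD and 1100 to 3570 CPM in WD ResKCs, with 1 called higher. Of 4 markers of conventional dendritic cells (cDCs) 1 was called higher, with sums of 2.37 to 5.12 CPM in SD and 5.75 to 8.73 CPM in WD ResKCs, and of the plasma cell markers 1 was called higher, with sums of 6.94 to 24.5 and 7.47 to 28.0 CPM. Sinusoidal endothelial, stellate and B cell markers each had 1 called lower. The part of cDCs, plasma cells, endothelial cells, stellate cells and B cells in the result was not tested. With the hepatocyte score as a covariate 4 members and 1123 of all genes were called, and with the immediate-early score 3 members and 443 genes, against 4 and 1169 without a covariate. Alignments in the file headers follow 2 naming schemes of unstated meaning, and all SD samples at 24 weeks are of the first. Within it, with 3 WD against 6 SD libraries, the mean log2 differences were 1.07 for *Psat1*, 0.63 for *Creld2*, 0.55 for *Syvn1* and 0.26 for *Pdia6*. With the scheme as a covariate only *Psat1* was called, *Creld2* falling just past the limit (edgeR, adjusted p = 0.051).

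**Figure D2:**
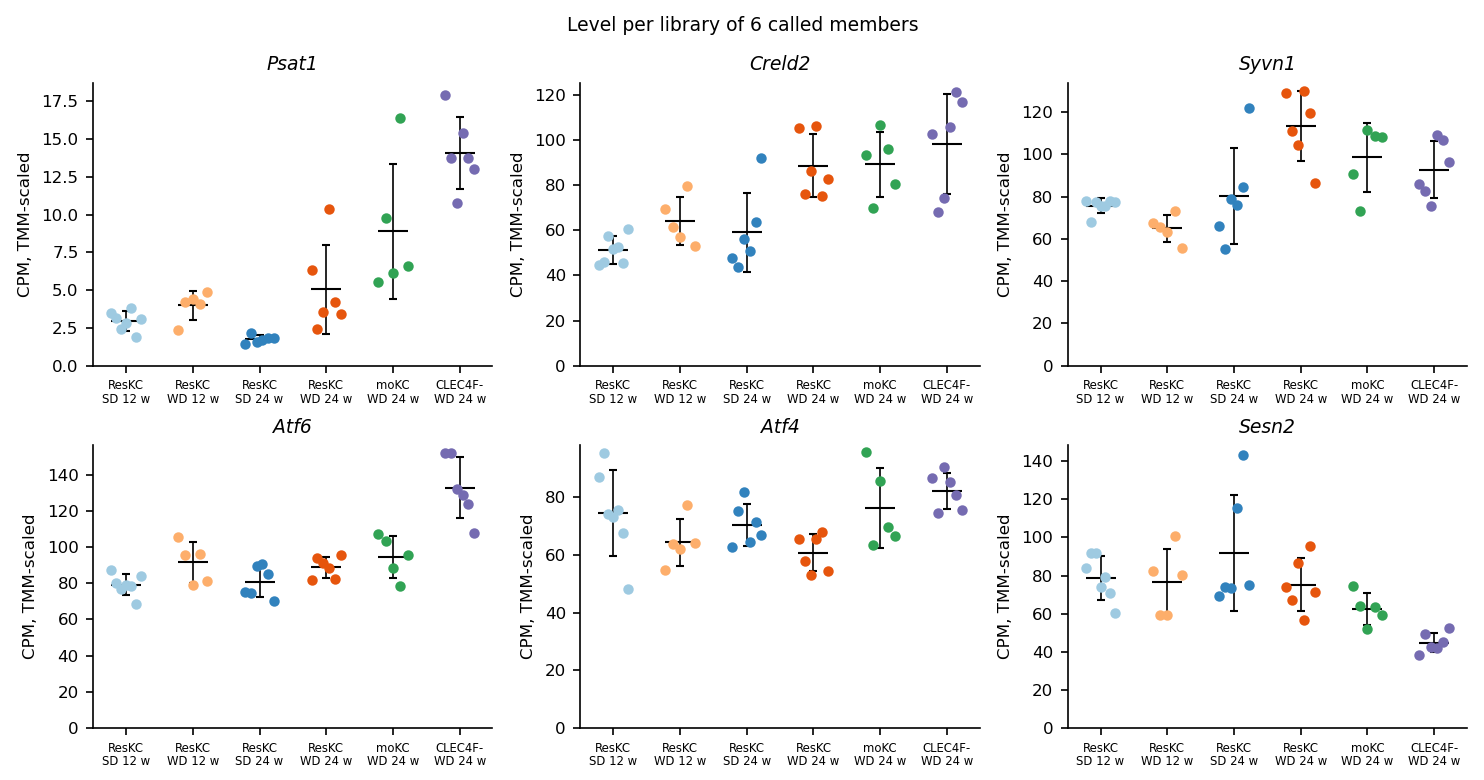
Level per library of 6 members called in at least 1 comparison, in CPM scaled by TMM factors, for the 6 groups, with the mean and ± 1 SD as bars. *Psat1* is higher in WD than in SD ResKCs at 24 weeks, and in CLEC4F- macs *Psat1* and *Atf6* lie above and *Sesn2* lies below every WD ResKC library of that time.

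At 12 weeks the same diets gave no call among the members, where 0.0373% of all genes (5 of 13421) were called. By unadjusted p under 0.05 the members held 8 (edgeR), and over all genes 1172, or 8.73%. DESeq2 and limma-voom called 0 members. The median log2 fold change of the members was 0.11 against 0.0163 over all genes. Above 0 were 22 of the 31 members and 7158 of all genes. *Hyou1* had the lowest p of the members, at 0.36 ± 0.13 SE (edgeR, adjusted p = 0.427), *Creld2* was at 0.32 ± 0.16 SE (edgeR, adjusted p = 0.568), *Psat1* at 0.43 ± 0.28 SE (edgeR, adjusted p = 0.697) and *Hspa5* at 0.12 ± 0.13 SE (edgeR, adjusted p = 0.846). *Syvn1* lay on the other side of 0, at -0.22 ± 0.13 SE (edgeR, adjusted p = 0.678).

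Whether the diet effect differed between 24 and 12 weeks was tested directly. No member was called, where 0.283% of all genes (38) were, and 3 members had an unadjusted p under 0.05, as 14.1% of all genes did. *Syvn1* came closest, with a diet effect larger at 24 weeks by 0.71 ± 0.19 SE on the log2 scale (edgeR, adjusted p = 0.0744). It was called by DESeq2 (0.72, adjusted p = 0.0233) and, in edgeR's fit, without SD library 6 at 24 weeks (0.87, adjusted p = 0.0108). SD library 6 held the highest SD value of *Syvn1* at 24 weeks, so a fit without it gives a larger difference by itself. *Psat1* differed by 1.10 ± 0.40 SE (edgeR, adjusted p = 0.196). The call of *Psat1* and *Creld2* at 24 weeks and not at 12 weeks therefore does not show that the 2 times differ for them.

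The next question was time on each diet. On the SD, 24 against 12 weeks gave 0 calls among the members and 0 among all genes (0%), with 9 members and 1208 genes (9%) at an unadjusted p under 0.05 (edgeR). DESeq2 called 0 members and 16 genes, and limma-voom 0 of both. The lowest p values belonged to *Herpud1*, an ERAD adaptor, at 0.92 ± 0.26 SE (edgeR, adjusted p = 0.26), *Edem1*, a lectin of ERAD, at 0.31 ± 0.093 SE (edgeR, adjusted p = 0.288), and *Xbp1*, at 0.37 ± 0.12 SE (edgeR, adjusted p = 0.324). *Ddit4* was at 2.24 ± 0.71 SE (edgeR, adjusted p = 0.324).

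These genes were spread among the 6 SD libraries at 24 weeks. *Herpud1* was at 133, 129 and 179 CPM in libraries 1 to 3 and at 249, 296 and 434 CPM in libraries 4 to 6, against 91.5 to 156 CPM in the 7 SD libraries at 12 weeks. *Ddit4* was at 1.47, 1.38 and 2.03 CPM in libraries 1 to 3 and at 5.71, 17.2 and 11.7 CPM in libraries 4 to 6, against 0.813 to 2.07 CPM at 12 weeks. The immediate-early and heat-shock score was -0.866, 0.305 and 1.11 in libraries 1 to 3 and 1.34, 1.93 and 1.16 in libraries 4 to 6, and at 12 weeks, where both genes were low, it ranged from -1.71 to 1.37. Its part in these levels was not tested.

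**Figure D3:**
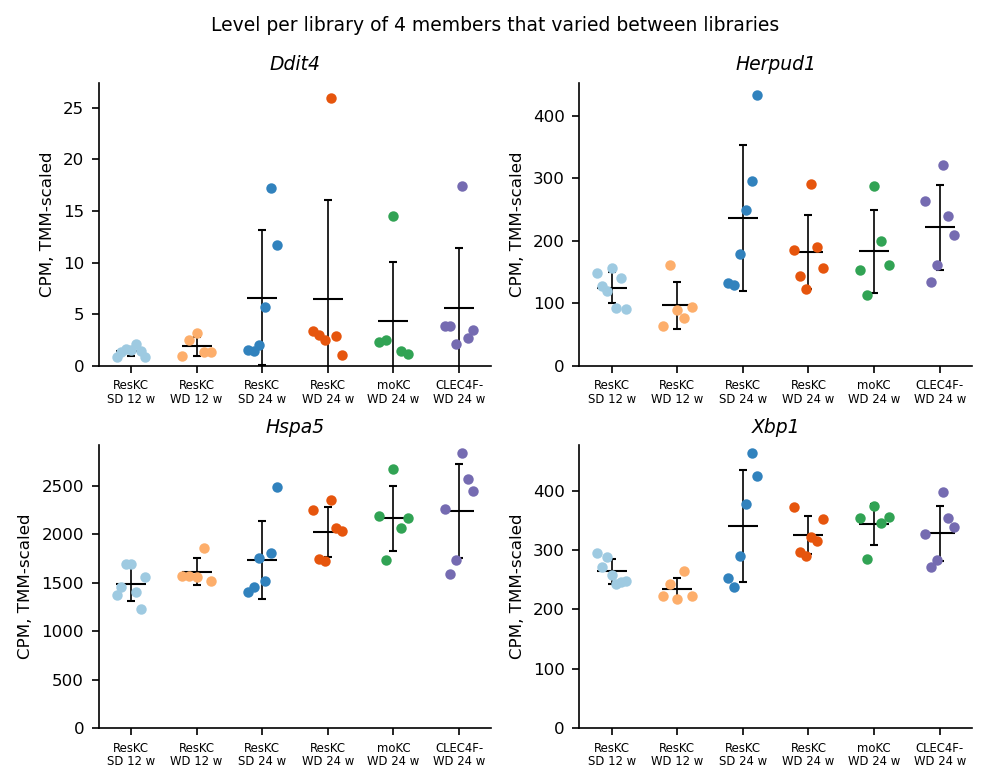
Level per library of *Ddit4*, *Herpud1*, *Hspa5* and *Xbp1* in CPM scaled by TMM factors, with the mean and ± 1 SD (bars end at 0). Single libraries set the means of *Ddit4*, such as WD library 4 at 26.0 CPM, and libraries 4 to 6 lead the SD group at 24 weeks for *Herpud1* and *Xbp1*.

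On the WD, 24 against 12 weeks gave 2 members called higher and 0 lower (6.45%), where 3.26% of all genes were called and 1.53% were called higher. *Syvn1* had 67.6, 65.7, 63.3, 73.1 and 55.7 CPM in the 5 libraries at 12 weeks and 86.5 to 130 CPM in the 6 at 24 weeks. All libraries at 24 weeks were above all at 12 weeks, which 1.68% of all genes showed in this direction, and the log2 fold change was 0.80 ± 0.14 SE (edgeR, adjusted p = 0.00298). *Xbp1* had 223, 242, 217, 264 and 223 CPM at 12 weeks and a lowest value of 290, a median of 320 and a highest value of 373 CPM at 24 weeks. Those groups did not overlap either, and the log2 fold change was 0.48 ± 0.13 SE (edgeR, adjusted p = 0.0332). The *Xbp1* call was lost without any 1 of 6 of the 11 libraries, WD libraries 1, 3 and 5 at 12 weeks and 1, 4 and 6 at 24 weeks, with the adjusted p reaching 0.0894 (edgeR), while that of *Syvn1* was kept in all 11.

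All 11 chaperones of the list were above 0 in this comparison, and none of them was called. Of the 31 members 24 were above 0, and of all 13421 genes 6662. The median of the members was 0.24 against -0.00281 over all genes. SD ResKCs over the same time had 10 of 11 chaperones, 24 of 31 members and 6813 of all genes above 0. The median there was 0.12 against 0.00374 over all genes. Single libraries were high for many members at once, so these signs are not separate observations. *Hspa5* was at 0.33 (edgeR, adjusted p = 0.185) and *Creld2* at 0.47 ± 0.16 SE (edgeR, adjusted p = 0.0993). *Herpud1* was at 0.90 ± 0.29 SE (edgeR, adjusted p = 0.0747), and was called without WD library 2 at 12 weeks, which held 161 CPM against 63.8 to 93.8 CPM in the other 4 (1.16, edgeR, adjusted p = 0.0289). Dropping the highest library at 12 weeks raises this difference by itself. The WD libraries at 12 weeks are all of the first naming scheme, and within it, with 3 against 5 libraries, the mean log2 difference was 0.82 for *Syvn1* and 0.45 for *Xbp1*, with no overlap. With the scheme as a covariate the *Xbp1* call was lost (0.44, edgeR, adjusted p = 0.0702).

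The 3 mac populations of WD-fed mice at 24 weeks were compared next. CLEC4F- macs differed from WD ResKCs in 9 of the 31 members (29%), 6 higher and 3 lower, where 33% of all genes were called, 16.1% higher and 17% lower. The share of members was thus near that of all genes. The higher ones were *Psat1*, *Derl3*, *Atf6*, *Atf4*, *Sdf2l1* and *Pdia6*, and the lower ones *Sesn2*, *Derl1* and *Canx*. The median of the members was 0.04 and that of all genes 0.0229. Without CLEC4F- library 4, which stood nearest to the Kupffer cells, 6 members were called, 3 higher and 3 lower. Without CLEC4F- library 1 it was also 6, and neither count has a share of all genes beside it.

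*Psat1* ranged from 10.8 to 17.9 CPM, with a median of 13.8 CPM, in CLEC4F- macs, above all 6 WD ResKC libraries given before, and its log2 fold change was 1.48 ± 0.27 SE (edgeR, adjusted p = 4.44e-05). No overlap in this direction was found for 7.18% of all genes. *Atf6*, on chromosome 1 from 170704674 to 170867771, had 81.6, 89.6 and 95.5 CPM as lowest, median and highest value in WD ResKCs and 108, 131 and 152 CPM in CLEC4F- macs, which lay apart, with 0.58 ± 0.088 SE (edgeR, adjusted p = 3.15e-06). *Atf4* had 53.1, 61.7 and 68.1 CPM against 74.8, 83.1 and 90.5 CPM, also apart, with 0.44 ± 0.12 SE (edgeR, adjusted p = 0.00358).

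*Derl3*, an ERAD protein known from secretory cells, had 0.0726 to 1.07 CPM (1 to 14 counts) in WD ResKCs and 1.21 to 3.68 CPM (17 to 53 counts) in CLEC4F- macs, with 1.59 ± 0.60 SE (edgeR, adjusted p = 0.0388). The groups lay apart by a small gap at these counts, and the call held in 6 of the 12 fits that left out 1 library. *Sdf2l1*, a partner of the BiP co-chaperone *Dnajb11*, averaged 206 ± 40.2 CPM (SD, n = 6) in WD ResKCs and 267 ± 41.9 CPM (SD, n = 6) in CLEC4F- macs, with overlap (0.37 ± 0.14 SE, edgeR, adjusted p = 0.039). *Pdia6* averaged 545 ± 55.9 and 640 ± 65.0 CPM, with overlap (0.23 ± 0.09 SE, edgeR, adjusted p = 0.0455). Both calls were lost in 7 of the 12 fits that left out 1 library, with adjusted p up to 0.113 for *Sdf2l1* and 0.112 for *Pdia6* (edgeR).

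On the lower side, *Sesn2*, a stress sensor that restrains mTORC1 when leucine is short, lies on chromosome 4 from 132492032 to 132510501. It had 56.5, 72.7 and 95.3 CPM as lowest, median and highest value in WD ResKCs and 38.4, 43.7 and 52.3 CPM in CLEC4F- macs. The groups did not overlap, which 8.81% of all genes showed in this direction, and the log2 fold change was -0.74 ± 0.16 SE (edgeR, adjusted p = 0.00039).

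*Derl1*, a channel protein of ERAD, had 239, 265 and 301 CPM in WD ResKCs and 178, 195 and 226 CPM in CLEC4F- macs, also apart, with -0.42 ± 0.08 SE (edgeR, adjusted p = 7.94e-05). *Canx*, the membrane-bound lectin chaperone, averaged 1072 ± 91.8 and 910 ± 107 CPM (SD, n = 6 each), with overlap (-0.24 ± 0.077 SE, edgeR, adjusted p = 0.0171). *Canx* was called in 9 of the 12 fits that left out 1 library. The related *Calr* was not called.

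In each naming scheme, with 3 against 3 libraries, the mean log2 difference kept its direction for all 9. In the first and second scheme it was 1.83 and 1.38 for *Psat1*, 0.71 and 0.44 for *Atf6*, -0.81 and -0.65 for *Sesn2*, and -0.56 and -0.29 for *Derl1*, while for *Canx* it was -0.45 and -0.04. The gate changed the markers of other cells too: Kupffer cell genes summed to 1280 to 12200 CPM in CLEC4F- macs against 25000 to 32100 CPM in WD ResKCs, with all 5 called lower. The 3 monocyte markers summed to 223 to 1140 against 5.08 to 6.85 CPM, with both tested ones called higher. The 4 B cell markers summed to 28.2 to 163 against 9.86 to 28.4 CPM, with all 4 called higher, and the 5 plasma cell markers to 20.8 to 78.5 against 7.47 to 28.0 CPM, with 2 of 4 tested called higher. The 4 cDC markers summed to 11.3 to 153 against 5.75 to 8.73 CPM, with 2 called higher, and the 5 stellate cell markers to 68.4 to 248 against 32.1 to 96.9 CPM, with 3 called higher. The 6 sinusoidal endothelial markers summed to 345 to 581 against 794 to 1130 CPM, with 3 called lower, and the 1 tested of 5 T and NK cell markers was called higher. No B cell or plasma cell marker was at 0 in every library of either group. The part of these cells in the differences, that of *Derl3* included, was not tested. Immediate-early and heat-shock genes summed to 2190 to 10200 CPM in CLEC4F- macs against 1050 to 4940 CPM in WD ResKCs, with 2 of 10 called higher. With their score as a covariate, 6 members and 4197 of all genes were called, against 9 and 4433 without it. The calls of *Sdf2l1*, *Pdia6* and *Derl3* were lost there.

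moKCs and WD ResKCs did not differ in any of the 31 members by the test, where 2.99% of all genes (401) were called, and 4 members had an unadjusted p under 0.05, as 15.9% of all genes did. DESeq2 and limma-voom also called 0. *Psat1* had 5.55, 9.75, 6.15, 16.4 and 6.59 CPM in the 5 moKC libraries and lay between the other populations, with 0.81 ± 0.28 SE against WD ResKCs (edgeR, adjusted p = 0.108). Without WD ResKC library 4, at 10.4 CPM, this difference was called (1.15, edgeR, adjusted p = 0.00682). That library held the highest WD ResKC level, so a fit without it gives a larger difference by itself. *Atf4* was at 0.33 ± 0.12 SE (edgeR, adjusted p = 0.144), and moKC libraries 1 and 3 held its highest values, 95.7 and 85.8 CPM.

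CLEC4F- macs and moKCs differed in 3 members (9.68%), 1 higher and 2 lower, where 16.4% of all genes were called, 7.09% higher and 9.34% lower. Without CLEC4F- library 4 there were 1 higher and 1 lower, again with no share of all genes beside them. With library size alone as the scale the split became 3 higher and 0 lower. That scale called 2416 of all genes and shifted their median up by 0.086. *Atf6* had 107, 104, 88.4, 78.6 and 95.5 CPM in moKCs, all below the lowest CLEC4F- library at 108 CPM, with 0.49 ± 0.092 SE (edgeR, adjusted p = 0.000218). Groups apart in this direction were found for 3.96% of all genes.

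*Sesn2* had 74.8, 64.1, 51.7, 63.4 and 59.3 CPM in moKCs, with moKC library 3 inside the CLEC4F- range, and a log2 fold change of -0.48 ± 0.17 SE (edgeR, adjusted p = 0.0427). *Derl1* had 221, 224, 249, 223 and 264 CPM in moKCs, and CLEC4F- library 6 overlapped them at 226 CPM (-0.25 ± 0.083 SE, edgeR, adjusted p = 0.0366). The *Sesn2* call held in 2 of the 11 fits that left out 1 library and that of *Derl1* in 6. *Psat1* was at 0.67 ± 0.28 SE (edgeR, adjusted p = 0.0986), and was called without moKC library 4, at 16.4 CPM (1.01, edgeR, adjusted p = 0.00914). Here too the library left out was the highest of the lower group, which raises the difference by itself. The populations share samples across these 3 comparisons, so their values are given side by side only.

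Passing the test in none of the 8 comparisons left 19 members. They include the chaperones *Hspa5*, *Hsp90b1*, *Hyou1*, *Calr*, *Dnajb9*, *Dnajb11*, *Dnajc3* and *Manf*, the disulfide isomerases *Pdia3* and *Pdia4*, the ERAD genes *Herpud1*, *Edem1* and *Sel1l*, the sensor genes *Ern1* (IRE1) and *Eif2ak3* (PERK), and *Ddit3*, *Ddit4*, *Trib3* and *Asns*. Without *Asns*, their log2 fold changes on the WD against the SD ran from -0.38 for *Herpud1* to 0.65 for *Trib3* at 24 weeks and from -0.37 to 0.50 for the same genes at 12 weeks. Between CLEC4F- macs and WD ResKCs they ran from -0.26 for *Dnajb9*, a co-chaperone that binds IRE1, to 0.29 for *Herpud1*.

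The most even of these was *Pdia3*, whose group means lay between 1249 ± 64.8 CPM in SD ResKCs at 12 weeks (SD, n = 7) and 1313 ± 96.7 CPM in WD ResKCs at 12 weeks (SD, n = 5). *Hsp90b1*, the Hsp90 of the ER, had its lowest mean, 864.6 ± 63.3 CPM, in SD ResKCs at 24 weeks and its highest, 1008 ± 84.1 CPM, in WD ResKCs at 24 weeks (SD, n = 6 each; 0.22 ± 0.088 SE, edgeR, adjusted p = 0.108). *Manf*, a secreted protein that binds BiP, averaged 136.5 ± 17.0 CPM in SD ResKCs at 12 weeks (SD, n = 7) and 182 to 199 CPM in the 4 groups at 24 weeks. *Ern1* averaged 43.4 to 59.4 CPM and *Eif2ak3* 37.7 to 48.3 CPM over the 6 groups, with all groups of each gene overlapping their neighbours in order.

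A score, the mean over members of log2 CPM centred per gene, was formed for all 31 members, for the 20 of folding and ERAD and for the 6 of the ATF4 arm (*Ddit3*, *Ddit4*, *Trib3*, *Sesn2*, *Asns* and *Psat1*). Over all 31 it averaged -0.248 ± 0.0777 and -0.145 ± 0.119 in SD and WD ResKCs at 12 weeks, and -0.0953 ± 0.263 and 0.107 ± 0.192 in SD and WD ResKCs at 24 weeks (SD, n = 7, 5, 6 and 6). In moKCs it was 0.154 ± 0.132 (SD, n = 5) and in CLEC4F- macs 0.271 ± 0.208 (SD, n = 6). Neighbouring groups in this order overlapped in every case. The step from WD ResKCs at 24 weeks to CLEC4F- macs came mostly from members at low levels, *Asns*, *Derl3* and *Psat1*. Their log2 fold changes were 1.82, 1.59 and 1.48, while the median of the 31 members was 0.04 and 14 were below 0. The folding and ERAD score averaged -0.0764 ± 0.294 in SD and 0.14 ± 0.12 in WD ResKCs at 24 weeks, and its range in SD ResKCs held the range of the WD libraries. The ATF4-arm score averaged -0.266 ± 0.365 in SD and 0.102 ± 0.57 in WD ResKCs at 24 weeks. In CLEC4F- macs it averaged 0.656 ± 0.341, and each of these groups overlapped the others. Its 6 members did not move together between CLEC4F- macs and WD ResKCs. *Asns* (1.82) and *Psat1* (1.48) had the largest log2 fold changes, *Sesn2* was at -0.74, and the median was 0.16. *Asns* also passed the filter mainly through CLEC4F- macs, so this score does not show a rise of the whole arm. Scores over members are a description and were not tested.

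**Figure D4:**
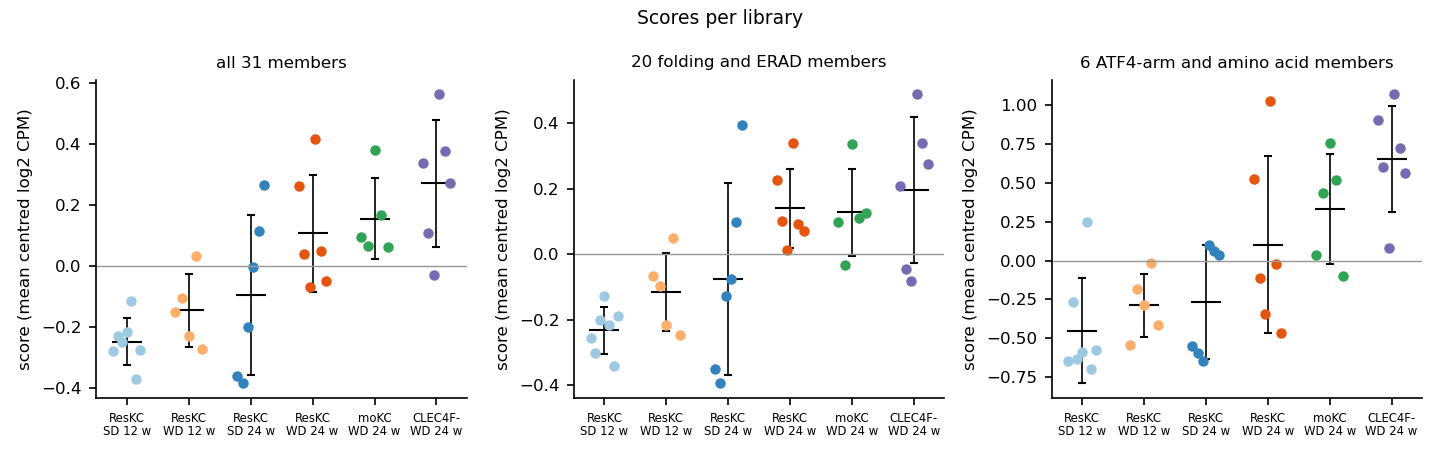
Score per library (mean over members of log2 CPM centred per gene) for all 31 members, the 20 of folding and ERAD and the 6 of the ATF4 arm, in the 6 groups, with the mean and ± 1 SD. Group means of the first score run from -0.248 in SD ResKCs at 12 weeks to 0.271 in CLEC4F- macs, and single libraries of neighbouring groups overlap.

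Single libraries carried many members at once. SD library 6 at 24 weeks was the highest of its group for 17 of 31 members, moKC library 3 for 23, CLEC4F- library 4 for 18, WD library 4 at 12 weeks for 15 and WD library 4 at 24 weeks for 13. At the low end, moKC library 2 was the lowest of its group for 17 members and WD library 3 at 24 weeks for 15. The same counts were not made over all genes, so a library high or low for genes in general cannot be told apart here. Members of 1 library are not taken as independent of each other.

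Other genes of the same pathways, in lists chosen by name, gave a wider view. Of 48 tested genes of the UPR and the ER outside the members, 2 were higher and 0 lower on the WD at 24 weeks (4.17%), under the 8.71% of all genes. They were the translocon subunit gene *Ssr1* at 0.31 (edgeR, adjusted p = 0.02) and the ribosome receptor gene *Rrbp1* at 0.29 (edgeR, adjusted p = 0.0317). Of 40 tested genes of ATF4 and amino acid handling, 2 were higher and 1 lower (7.5%), also under that share. These were *Mthfd2*, of mitochondrial one-carbon metabolism, at 0.72 (edgeR, adjusted p = 0.0441), the alanyl-tRNA synthetase gene *Aars* at 0.22 (edgeR, adjusted p = 0.0289), and *Cebpb*, a partner of ATF4, at -0.69 (edgeR, adjusted p = 0.0223). All 5 calls were lost in some fits: *Mthfd2* was called in 3 of the 12 fits that left out 1 library, *Aars* in 6, *Rrbp1* in 8, *Cebpb* in 9 and *Ssr1* in 10, and with the immediate-early covariate *Cebpb* was at -0.09 (edgeR, adjusted p = 0.716). At 12 weeks, in the difference of the diet effects and in SD ResKCs over time, 0 genes of either list were called by edgeR. In WD ResKCs over time 1 was called, the glutamine transporter gene *Slc38a2*, at 0.75 (edgeR, adjusted p = 0.0283), a call kept in 5 of the 11 fits that left out 1 library.

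The populations were compared for the same lists. Against WD ResKCs, CLEC4F- macs had 5 higher and 15 lower of the 48 UPR and ER genes (41.7%) and 8 higher and 7 lower of the 40 amino acid genes (37.5%), beside the 33% of all genes. The cystine transporter gene *Slc7a11* had 0 to 1.23 CPM in WD ResKCs and 3.87 to 31.4 CPM in CLEC4F- macs, and the 5 moKC libraries were at 1.74, 2.21, 0.749, 5.49 and 0.732 CPM. All CLEC4F- libraries were above all WD ResKC libraries, and the log2 fold change was 4.91 ± 0.63 SE (edgeR, adjusted p = 1.81e-07). The neutral amino acid transporter gene *Slc1a5* averaged 7.39 CPM in WD ResKCs and 45.4 CPM in CLEC4F- macs, with moKCs at 21.2 CPM, and was called between each pair, at 2.62 ± 0.30 SE for CLEC4F- macs against WD ResKCs (edgeR, adjusted p = 1.73e-08), 1.52 for moKCs against WD ResKCs (edgeR, adjusted p = 0.00229) and 1.10 for CLEC4F- macs against moKCs (edgeR, adjusted p = 0.00774).

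The stress factor gene *Atf3* was at 2.19 ± 0.49 SE (edgeR, adjusted p = 0.000702) and *Gadd45a* at 1.27 ± 0.41 SE (edgeR, adjusted p = 0.0159) in CLEC4F- macs against WD ResKCs. *Aldh18a1*, of proline synthesis, was lower, with means of 147 CPM in WD ResKCs and 60.7 CPM in CLEC4F- macs and moKCs at 108.5 CPM (-1.28 ± 0.18 SE, edgeR, adjusted p = 6.06e-07). Also lower were *Creb3l2*, an ER-bound transcription factor, at -1.02 (edgeR, adjusted p = 0.000184), the alanine transaminase gene *Gpt2* at -0.80 (edgeR, adjusted p = 0.00575), and the disulfide isomerase gene *Pdia5* at -0.59 (edgeR, adjusted p = 0.0129).

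moKCs against WD ResKCs gave 2 higher and 1 lower of the 40 amino acid genes (7.5%), beside 2.99% of all genes. Besides *Slc1a5*, these were *Slc7a11* at 2.17 (edgeR, adjusted p = 0.0494), called in 5 of the 11 fits that left out 1 library (adjusted p up to 0.259), and *Aars* at -0.30 (edgeR, adjusted p = 0.0101). CLEC4F- macs against moKCs gave 1 higher and 6 lower of the UPR and ER genes (14.6%) and 3 higher and 3 lower of the amino acid genes (15%), near the 16.4% of all genes. *Mthfd2* was kept in 6 of the 11 fits that left out 1 library. *Slc7a11* was at 2.75 (edgeR, adjusted p = 0.000931), *Mthfd2* at 0.69 (edgeR, adjusted p = 0.0394), *Aldh18a1* at -0.84 (edgeR, adjusted p = 0.00106) and *Creb3*, an ER-bound factor, at -0.35 (edgeR, adjusted p = 0.00226).

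**Figure D5:**
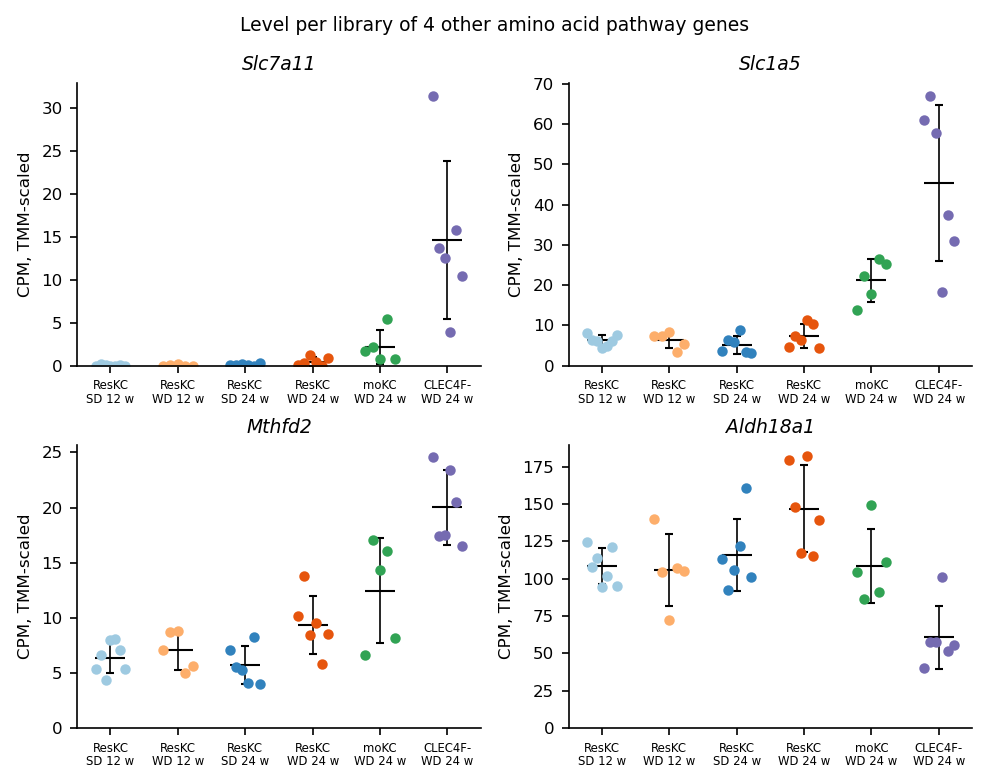
Level per library of *Slc7a11*, *Slc1a5*, *Mthfd2* and *Aldh18a1*, amino acid pathway genes outside the members, in CPM scaled by TMM factors, with the mean and ± 1 SD (bars end at 0). The first 3 are highest in CLEC4F- macs with moKCs between them and WD ResKCs by the mean, and *Aldh18a1* runs the other way.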

How the data were processed

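Per the study's methods, the authors prepared TruSeq libraries and sequenced single reads on a NextSeq500. The submitters' processing notes name FastQC 0.11.9, HISAT2 2.2.0, SAMtools 1.10, featureCounts 2.0.0 and mm10. Annotation, strand setting and treatment of multi-mapped reads are not given in the sources used here. The files as deposited hold raw counts for each gene symbol.

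A gene was kept when it exceeded 1 CPM in 5 or more of the 35 samples (13421 genes). One edgeR 4.0.16 quasi-likelihood fit in R 4.3.3, with TMM factors and 6 group means, gave 8 comparisons, each adjusted over all genes by Benjamini-Hochberg. Calls needed an adjusted p under 0.05 and no minimum fold. The difference of the diet effects is an interaction contrast. Scores use log2 CPM with a prior count of 2. The fit was tested on simulated counts with changes larger than that of any called member and no effect of library or naming scheme beyond depth. That test therefore does not cover calls of a small fold. Positions are from GENCODE M21 (mm10). Named in full were *Hspa5*, *Xbp1*, *Atf4*, *Ddit3*, *Asns* and, per comparison, up to 8 called members a direction and up to 4 other pathway genes a direction. Further members were named after their values were seen. One result of the other pathway genes is not reported here. Members and lists were chosen with earlier results of these data known.

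Alternatives were DESeq2 1.42.0, limma-voom (limma 3.58.1), RLE factors, library size alone, no filter, the compared groups alone, covariates for hepatocyte genes, for immediate-early and heat-shock genes or for naming scheme, a log2 fold limit of 1, replicate number as a block, and each library left out in turn. For scores, the alternatives were both scalings and a prior count of 0.5.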

Additional observations from a re-analysis of the deposited data

Results flagged for a closer look

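Single libraries stood far from the rest of their group for 12 of 204 groups of member values and scores with 4 to 10 samples, where chance gives about 1 in 20. *Ddit4* gave 2 of them. WD ResKC library 4 at 24 weeks had 26.0 CPM of *Ddit4* against 1.03 to 3.41 CPM in the other 5, and CLEC4F- library 4 had 17.4 CPM against 2.13 to 3.88 CPM. SD ResKC library 6 at 24 weeks was high in 2 co-chaperones of BiP, with 195 CPM of *Dnajb11* against 149 to 161 CPM and 296 CPM of *Dnajc3* against 222 to 245 CPM. WD ResKC library 4 at 12 weeks had 1858 CPM of *Hspa5* against 1524 to 1567 CPM. The UPR sensor genes gave 2 more, with 70.9 CPM of *Ern1* (IRE1) in WD ResKC library 1 at 12 weeks against 54.1 to 57.9 CPM, and 52.7 CPM of *Eif2ak3* (PERK) in moKC library 3 against 42.9 to 44.1 CPM.

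The other 5 were low. *Psat1* was at 2.35 CPM in WD ResKC library 1 at 12 weeks against 4.09 to 4.86 CPM, *Trib3* at 0.71 CPM in WD ResKC library 6 at 24 weeks against 1.73 to 2.63 CPM, and *Derl3* at 0.0726 CPM in WD ResKC library 1 at 24 weeks against 0.614 to 1.07 CPM. *Edem1* was at 202 CPM in moKC library 4 against 237 to 247 CPM. *Syvn1* was at 68.0 CPM in SD ResKC library 2 at 12 weeks against 75.5 to 77.8 CPM.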

How the results depend on the processing

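Of the 18 member calls, 8 were kept in 10 other settings (all but the log2 fold limit of 1) and in every fit without 1 library, and 0 reversed. The 8 were *Psat1* on the WD at 24 weeks, *Syvn1* in WD ResKCs over time, *Psat1*, *Sesn2*, *Derl1*, *Atf6* and *Atf4* in CLEC4F- macs against WD ResKCs, and *Atf6* in CLEC4F- macs against moKCs. The causes of the lost calls were not tested.

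For the WD against SD at 24 weeks, library size alone called 9 members and 1479 of all 13421 genes. The naming scheme as a covariate gave 1 member and 897 genes, and the log2 fold limit 1 member and 450 genes. Leaving out each library gave 3 to 6 members there, 0 to 0 at 12 weeks, 0 to 1 for the difference of the diet effects, 0 to 0 in SD and 1 to 3 in WD ResKCs over time, 6 to 9 for CLEC4F- macs against WD ResKCs, 0 to 1 for moKCs against WD ResKCs and 1 to 3 for CLEC4F- macs against moKCs. No share of all genes stands beside these counts, and the ranges over all genes below are for the other settings. For the difference of the diet effects, DESeq2 called 1 member (*Syvn1*) and 184 genes, and library size alone called 1 member and 33 genes. In WD ResKCs over time 1 member and 190 genes were called with no filter, and 1 member (*Syvn1*) and 319 genes with the naming scheme. The fold limit left 0 members and 93 genes there. In CLEC4F- macs the fold limit left 2 members and 1399 genes against WD ResKCs, and 0 members and 678 genes against moKCs. With no filter, 1 member and 1795 genes were called against moKCs. Over the settings, the count over all genes ranged from 443 to 1504 for the WD against the SD at 24 weeks (1169 as reported), from 0 to 86 at 12 weeks (5), from 8 to 184 for the difference (38), from 0 to 16 in SD (0) and from 93 to 632 in WD ResKCs over time (438), from 1399 to 4899 for CLEC4F- macs against WD ResKCs (4433), from 186 to 576 for moKCs against WD ResKCs (401) and from 678 to 2416 for CLEC4F- macs against moKCs (2204). Library size alone shifted the median of all genes by 0.12 (log2) in CLEC4F- macs against WD ResKCs. For the WD against the SD at 24 weeks it shifted that median up by 0.076.

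The replicate numbers of the labels were not shown to pair samples, since in no comparison did every pair of same-numbered libraries correlate over 0.1 in its deviations from the group means. A single low pair is enough to fail this rule, so it does not show that no samples share a mouse. The reported fit had no replicate block. With the number as a block, 4 members and 1281 of all genes were called on the WD against the SD at 24 weeks. At 12 weeks it was 0 members and 86 genes, and for the difference 0 and 21. In ResKCs over time it was 0 and 0 on the SD and 2 and 311 on the WD. CLEC4F- macs against WD ResKCs gave 8 members and 4487 genes, and moKCs against WD ResKCs 0 and 372. CLEC4F- macs against moKCs gave 3 and 2183. In CLEC4F- macs against WD ResKCs, 5 of 6 libraries correlated best with their own number. Between 24 and 12 weeks, 4 of 5 did so in WD and 3 of 6 in SD ResKCs, and the cause was not tested.

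At this depth *Asns*, *Derl3* and *Trib3* rest on few counts, and *Chac1*, *Vldlr* and *Phgdh* were too low to test.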
